A study of Mus musculus with 6 samples.

Results

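In newborn mouse cortex, the RNA sites of FLAG-tagged PTBP1 expressed in place of PTBP2 were compared with those of native PTBP2 in wild-type cortex. The comparison rests on 2 of the 6 crosslinking and immunoprecipitation (CLIP) libraries of the series. Lines of a deposited list with the same chromosome, strand, start and end were counted once, as 1 distinct interval. Intervals of both lists that touched on the same strand were merged into union sites on chromosomes 1 to 19 and X, and the intervals of each library were counted at every site. This gave 52054 union sites, of which 3630 held 20 or more intervals of both libraries together and were used for ratios. Merging all 6 lists in the same way gave 168221 sites.

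PTBP1 and PTBP2 are paralogous RNA-binding proteins that recognise pyrimidine-rich RNA, and both can repress or promote the inclusion of exons near which they bind. PTBP1 is present in most dividing cells, neural progenitors included. It falls as neurons form, and PTBP2 takes its place in young neurons before it falls in turn. Mice in which one protein stands in for the other ask how far their RNA targets are shared.

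The PTBP1 library was made with a FLAG antibody from cortex labelled Rosa-PTBP1; PTBP2 loxp/loxp; Emx1-Cre. It carried the FLAG-PTBP1 transgene, both PTBP2 alleles flanked by loxP sites, and the recombinase that can delete them. The PTBP2 library was made with a PTBP2 antibody from wild-type cortex, which has neither the transgene nor the recombinase. Side comparisons used FLAG and PTBP2 libraries of Rosa-PTBP1; Emx1-cre cortex, where both proteins can be present, and 2 FLAG libraries of wild-type cortex, which has no FLAG-tagged protein.

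All mice were on the BL6/129Sv background and were taken on postnatal day 1. Triturated cortex received ultraviolet light at 400 mJ/cm2, and complexes from nuclear fractions were taken from the membrane between 80 and 110 kDa, above FLAG-PTBP1 (60 kDa) and PTBP2 (58 kDa). Emx1-Cre acts in the dorsal forebrain lineage that gives rise to cortical excitatory neurons and glia, so interneurons, vessels and microglia lie outside it and keep native PTBP alleles. No PTBP2 library of the loxp/loxp genotype is among the 6, so the loss of PTBP2 was not checked in these data. Protein, antibody, genotype and sequencing run all differed between the 2 libraries. The cells drawn on may have differed too, since PTBP2 of wild-type cortex can come from cells outside the Emx1 lineage. Whether FLAG-PTBP1 was present in such cells was not checked in these data. These differences cannot be told apart. In a bulk library, more cells that hold an RNA, more of that RNA in each cell and more binding to it cannot be told apart either.

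Each group in the comparison held 1 library, so there was no test, and every interval given here covers counting error alone. Distinct intervals of one site are not independent molecules, which makes these limits too narrow. Limits on a share of sites treat the sites as independent draws, although neighbouring sites can lie in the same RNA. The FLAG-PTBP1 library held 265915 distinct intervals with a median length of 32 bases, all from run WA047. The PTBP2 library held 155285 with a median of 38 bases, 30.3% from run XA041 and 69.7% from run XB028. The FLAG and PTBP2 libraries of Rosa-PTBP1 cortex held 351536 and 74285, and the wild-type FLAG libraries 88266 and 26629. The FLAG library of Rosa-PTBP1 cortex was sparse on chromosome 10, and the PTBP2 library of Rosa-PTBP1 cortex on 7 chromosomes. Values that use them for comparison were therefore taken on the 12 chromosomes filled in all 4 PTBP libraries. The lists hold only clusters that passed a false discovery rate, so reads below that level may be missing from a site listed at 0, and no size of fold is quoted for such sites. They do enter the counts, orders and percentiles below, through a pseudocount.

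At sites with many intervals, PTBP1 and PTBP2 were almost always listed together. Of the 3630 sites with 20 or more intervals, 3266 (90.0%, exact Clopper-Pearson 95% interval 88.9 to 90.9) held intervals of both proteins. Another 327 were listed for FLAG-PTBP1 only and 37 for PTBP2 only. The share rose with the number of intervals, to 98.6% of 996 sites with 50 or more and to all 113 sites with 200 or more. A site with 1 interval of each library counts as listed in both. Sites with more intervals were also wider, with a median of 153 bases at 20 or more and 643 at 200 or more, against 54 over all sites. A rise with the number of intervals is thus partly built into this measure. Over all 52054 sites the share listed in both was 16.2%, with 25641 listed for FLAG-PTBP1 only and 17995 for PTBP2 only. The sites in both lists were thus few by number, 8418 of the 52054. The 3630 deeper sites, those listed for 1 protein only included, held 46.8% of all FLAG-PTBP1 intervals and 49.9% of all PTBP2 intervals.

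The amount at each site varied more than its presence. A site's share is its distinct intervals as a percentage of its library, and ratios of shares are FLAG-PTBP1 over PTBP2 with a pseudocount of 0.5 on the log2 scale. The median log2 ratio over the 3630 sites was 0.02, with a 5th percentile of -2.10 and a 95th of 4.78. Among sites listed in both libraries, Spearman's correlation of the counts across sites was 0.31 at 20 or more intervals and 0.52 across the 113 sites with 200 or more. These correlations describe sites that were chosen on the summed count.

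A site was called higher for one protein when its share, with the pseudocount, was at least 4 times the other. By this rule 508 sites were FLAG-PTBP1-higher, which is 14.0% of those tested, and 204 were PTBP2-higher, or 5.62%. Of these calls 327 and 37 were sites listed at 0 for the other protein, whose ratio exists only through the pseudocount, and 181 and 167 were listed in both libraries. Calls came mostly from the thinner sites. They made up 28.4% of sites with 20 to 29 intervals, 17.8% of those with 30 to 49, 9.83% of those with 50 to 99, 5.79% of those with 100 or more but under 200, and 0.885% of those with 200 or more. The surplus of FLAG-PTBP1-higher calls moved with depth. When the FLAG-PTBP1 library was thinned at random to the size of the PTBP2 library, 143 of 2416 sites were FLAG-PTBP1-higher and 176 PTBP2-higher.

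Just inside the FLAG-PTBP1 threshold lay the site at chr3:55880676-55880950, with 51 intervals against 7, and just outside it chr15:68788222-68788525, with 91 against 13. On the PTBP2 side, chr13:9298184-9298407 lay just inside with 9 FLAG-PTBP1 intervals against 22, and chr10:28109792-28109908 just outside with 10 against 24. Sites on either side of the threshold thus hold similar counts. Of the 712 calls, 183 had a 95% interval that lay wholly beyond 4-fold.

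**Figure D1:**
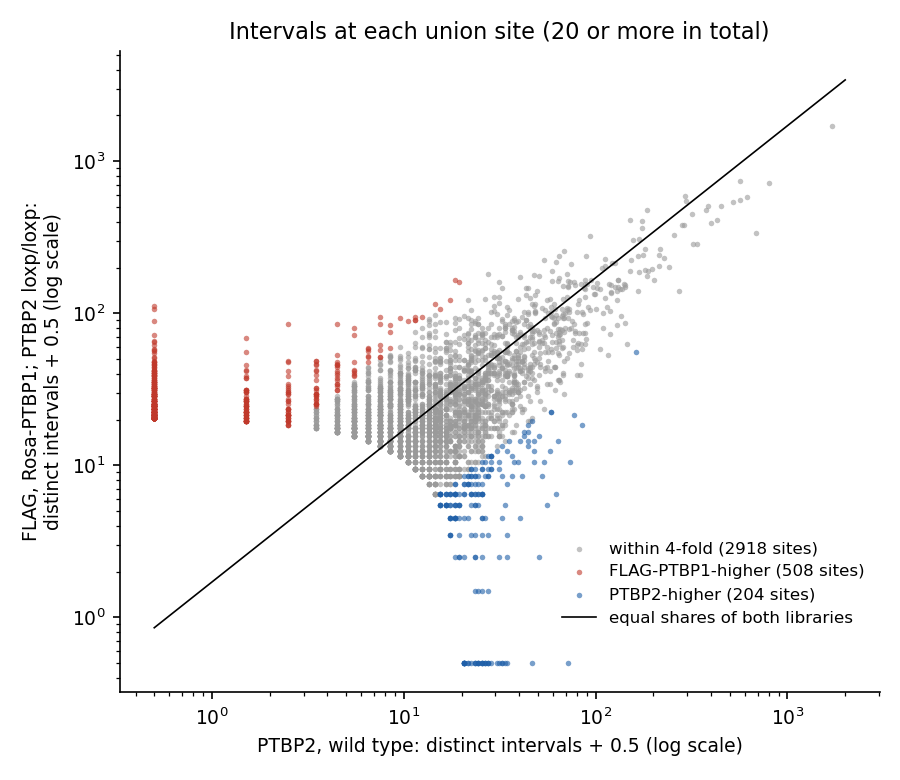
Each point is 1 of the 3630 union sites with 20 or more distinct intervals, with the PTBP2 count of wild-type cortex on the x axis and the FLAG-PTBP1 count of Rosa-PTBP1; PTBP2 loxp/loxp; Emx1-Cre cortex on the y axis, both plus 0.5 on log scales. The line marks equal shares of both libraries; the 508 red and 204 blue sites lie mostly at low counts, and the columns and row at 0.5 are sites listed at 0 in 1 library.

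The sites with most intervals were held by both proteins at shares less than 4-fold apart. All coordinates are of the mm9 build, and no gene or exon annotation of that build was used here, so sites are named by position. The site with most intervals, chrX:100661947-100663380 on the minus strand, held 1697 FLAG-PTBP1 and 1708 PTBP2 intervals. That is 0.638% of the first library and 1.10% of the second, a share 1.72-fold higher for PTBP2 (95% interval 1.61 to 1.84). The FLAG and PTBP2 libraries of Rosa-PTBP1 cortex held 1482 and 1595 intervals there, and the wild-type FLAG libraries 2 and 9. This site was thus crowded in all 4 PTBP libraries and nearly empty in the FLAG background.

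The next sites, on chromosome 19, were not free of background. At chr19:5799272-5799873 (minus strand) the counts were 719 for FLAG-PTBP1 and 801 for PTBP2, and the wild-type FLAG libraries held 114 and 912. At chr19:5797324-5797825 they were 738 and 568, with 102 and 1009 in the wild-type FLAG libraries. The FLAG library of Rosa-PTBP1 cortex held 962 and 1278 intervals at these sites. Wild-type FLAG replicate 2, sequenced in the same run as both FLAG-PTBP1 libraries, held more intervals at both sites than either library of the comparison. It held fewer than the FLAG library of Rosa-PTBP1 cortex, but its whole list has 26629 intervals against 351536. Its share at both sites was thus higher than in that FLAG library and in both libraries of the comparison. The part of this background in the FLAG-PTBP1 counts was not tested.

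At chr10:69072133-69073022 (plus strand) FLAG-PTBP1 held 582 intervals and PTBP2 617, and the wild-type FLAG libraries 3 and 0. The PTBP2 share was 1.82-fold higher (1.62 to 2.04). Of the 10 sites with most intervals, 9 had a higher share for PTBP2, by 1.29-fold to 3.50-fold. The exception was chr2:6782921-6784462 (minus strand), with 587 FLAG-PTBP1 intervals against 293 and a share 1.17-fold higher for FLAG-PTBP1 (1.02 to 1.35). The 3.50-fold value (3.07 to 4.00) belonged to chr2:158208904-158209353 (plus strand), singled out after its values were seen, with 337 FLAG-PTBP1 intervals against 689 and none in the wild-type FLAG libraries. PTBP2 was the higher of the pair there in Rosa-PTBP1 cortex as well, with a log2 ratio of -1.57 from 445 FLAG and 365 PTBP2 intervals. The tilt toward PTBP2 held for the deepest sites as a group: the median log2 ratio was -0.34 over the 113 sites with 200 or more intervals, against 0.02 over all sites tested.

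Within a site, both proteins covered much the same bases. Coverage is the number of distinct intervals over each base, and the likeness of 2 libraries is the Pearson correlation of their coverage along the site, with neighbouring bases sharing intervals. At 811 sites with 20 or more intervals of each protein, the median correlation was 0.67. The bases of highest coverage lay a median of 5 bases apart, within 10 bases at 489 sites (60.3%) and more than 50 bases apart at 184 (22.7%). Where several bases tied for the highest coverage, the smallest distance was taken. On chrX the correlation was 0.86, with a highest coverage of 111 intervals for FLAG-PTBP1 and 114 for PTBP2. FLAG-PTBP1 reached its highest coverage at more than 1 place there, and 1 of them shared a base with the PTBP2 peak. At chr2:158208904-158209353 it was 0.96, although the shares differed 3.50-fold.

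Some sites had shifted coverage. The correlation was below 0 at 26 of the 811 sites and lowest, -0.63, at chr9:28490204-28490508 (plus strand), where FLAG-PTBP1 held 37 intervals and PTBP2 44. The peaks of coverage lay 176 bases apart there. At chr14:28574649-28574959 (plus strand), with 35 intervals of each protein, the correlation was -0.47 and the peaks lay 60.0 bases apart. These positions were the ends of an ordered list and describe the extremes only.

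The same measure was taken at 249 sites with 20 or more intervals in all 4 PTBP libraries. FLAG-PTBP1 and PTBP2 of the comparison had a median correlation of 0.71. The 2 FLAG libraries, with and without PTBP2 loxP alleles, had 0.75, and the 2 PTBP2 libraries, wild type and Rosa-PTBP1, had 0.74. FLAG and PTBP2 within Rosa-PTBP1 cortex had 0.67. The 10th percentile was 0.27 and 0.31 for the pairs of FLAG with PTBP2, the comparison first, and 0.50 and 0.39 for the FLAG pair and the PTBP2 pair. Peaks lay more than 50 bases apart at 28.1% and 30.9% of sites for FLAG with PTBP2, and at 26.1% and 21.7% for the FLAG and PTBP2 pairs. Both pairs of paralogs had lower median correlations than the pairs of 1 protein in 2 genotypes, and more peaks over 50 bases apart. Peaks within 10 bases did not separate them so: 58.2% for the comparison, against 58.2% and 57.8% for the FLAG and PTBP2 pairs. FLAG with PTBP2 in Rosa-PTBP1 cortex had 49.8%. The 2 runs of the wild-type PTBP2 library, also 1 protein, had a median correlation of 0.65 at 95 sites. Their peaks lay more than 50 bases apart at 41.1%, and the median width was 473 bases against 307. These values share libraries and were not tested against each other. Coverage was taken without drawing the lists to equal depth, and the 2 FLAG lists are the deepest of the 4. The part of depth in these differences was not tested.

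**Figure D2:**
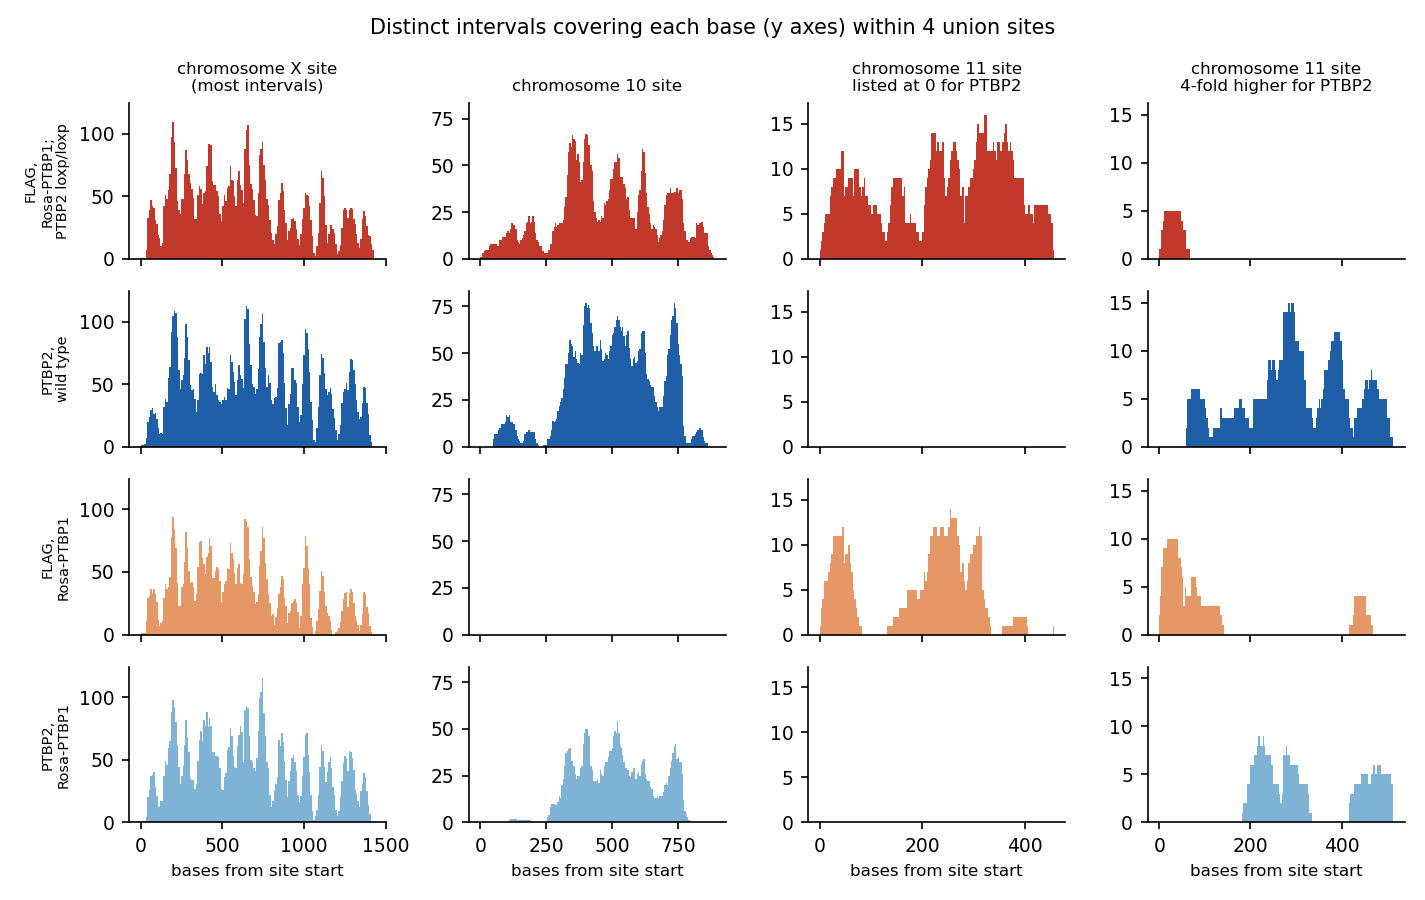
Distinct intervals covering each base (y axes) against bases from the site start (x axes) at 4 named sites, with a row for each of the 4 PTBP libraries and the same y axis within a site. The chromosome X and 10 sites have similar peaks for both proteins, the third site has FLAG intervals only, and at the fourth the FLAG intervals lie at the left end and the PTBP2 intervals mostly to the right. The empty FLAG Rosa-PTBP1 panel at the chromosome 10 site is on the chromosome where that list is sparse.

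Most FLAG-PTBP1-higher sites had no listed PTBP2, but PTBP2 was listed near most of them, as it was near most tested sites. Of the 508, 327 were listed at 0 for PTBP2 and 181 were listed in both libraries. Of the 327, 310 had 10 or more PTBP2 intervals elsewhere on the same strand of their 100-kb window. A PTBP2 site lay within 1000 bases of 262 of them and within 5000 bases of 303, at a median distance of 343 bases. Across all 508 sites another PTBP2 site, the site itself left out, lay within 1000 bases of 81.5%, against 84.0% of all sites tested. Another PTBP2 site nearby was thus about as common as over all sites tested and not particular to this class. The window count has no share of all tested sites beside it.

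Among sites with 50 or more intervals, the highest ratio was at chr11:36299785-36300241 (minus strand), with 112 FLAG-PTBP1 intervals and PTBP2 listed at 0. In Rosa-PTBP1 cortex FLAG held 60 intervals there and PTBP2 was again listed at 0, and both wild-type FLAG libraries were at 0. The site lay within a longer run of FLAG-PTBP1 sites. The site ending 51 bases before it, chr11:36299386-36299733, held 84 FLAG-PTBP1 and 22 PTBP2 intervals, and chr11:36298885-36299223 held 88 and 32. Chr11:36300335-36300431 and chr11:36300643-36300718, on the other side, held 14 and 11 FLAG-PTBP1 intervals with PTBP2 listed at 0. At lower coordinates, chr11:36297876-36297991 and chr11:36298657-36298752 held 15 and 18, again with PTBP2 listed at 0. FLAG-PTBP1 was thus listed past both ends of the stretch where PTBP2 was listed in wild-type cortex. In Rosa-PTBP1 cortex PTBP2 held 2 intervals at chr11:36298754-36298882, outside that stretch. The neighbouring sites listed at 0 were thin, and PTBP2 reads below the level of the list may be missing there.

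At chr4:77373310-77373867 (minus strand) the counts were 107 for FLAG-PTBP1 and 0 listed for PTBP2, with 53 FLAG intervals in Rosa-PTBP1 cortex and none in wild-type FLAG. PTBP2 reached 23 intervals at chr4:77374710-77374822, where FLAG-PTBP1 held 21, at a distance of 842 bases. The third in order, chr19:5797018-5797111, held 89 FLAG-PTBP1 intervals and none listed for PTBP2, but wild-type FLAG replicate 2 held 111 there. The part of the FLAG background in its place was not tested.

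On chromosome 3, PTBP2 and FLAG-PTBP1 shared the middle of a group of 3 neighbouring sites and differed at the flanks. The flanking sites chr3:80509109-80509244 and chr3:80509470-80509621 (minus strand) held 71 and 64 FLAG-PTBP1 intervals, with PTBP2 listed at 0 at both. The middle site, chr3:80509275-80509381, held 43 FLAG-PTBP1 and 45 PTBP2 intervals, and their coverage along it had a correlation of 0.99. In Rosa-PTBP1 cortex FLAG held 46 and 23 intervals at the flanks and was listed at 0 in the middle, while PTBP2 held 0 and 2 at the flanks and 58 in the middle. The flanks were thus nearly FLAG-only in both genotypes, and the middle site held PTBP2 in both.

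**Figure D3:**
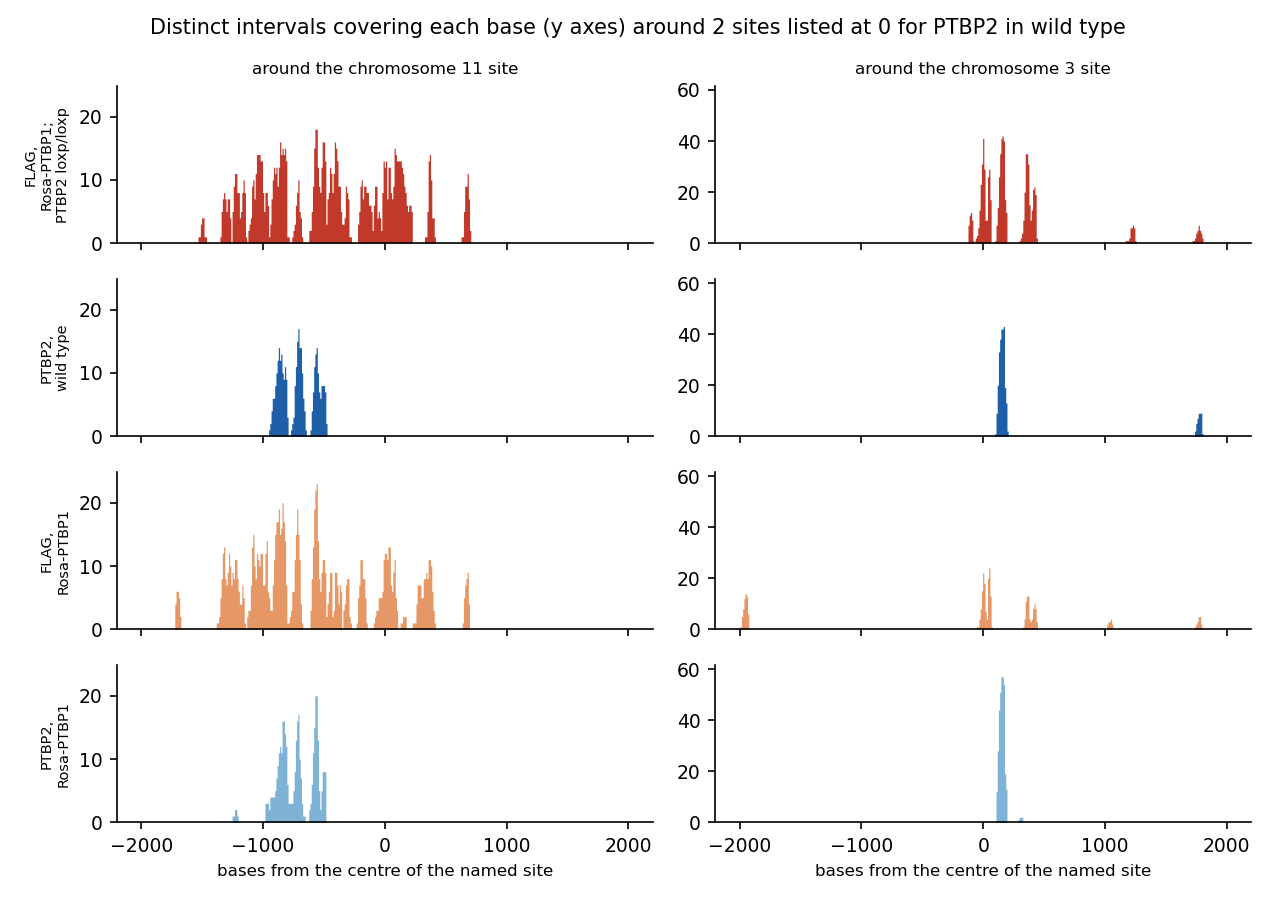
Distinct intervals covering each base (y axes) within 2000 bases of the centre of 2 sites listed at 0 for PTBP2 (x axes, bases from the centre), on the strand of the site, with a row for each PTBP library. On chromosome 11 the FLAG intervals run over a longer stretch than the PTBP2 intervals in both genotypes, and on chromosome 3 the main PTBP2 peak lies between FLAG peaks.

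The other sites among the 10 highest held 56 to 65 FLAG-PTBP1 intervals with PTBP2 listed at 0. They included chr3:119446460-119446691 (minus strand), with 65 intervals and 67 FLAG intervals in Rosa-PTBP1 cortex, where PTBP2 was at 0. Chr16:67429187-67429590 (minus strand) held 61, and there the Rosa-PTBP1 libraries listed 47 FLAG and 10 PTBP2 intervals. As shares these gave a log2 ratio of 0.32, below the median of 0.65 over the tested sites compared in that pair. That site therefore held listed PTBP2 in 1 of the 2 genotypes, and the second pair did not show its lean toward FLAG. At chr17:81980663-81980971 (minus strand) FLAG-PTBP1 held 58 intervals, and FLAG in Rosa-PTBP1 cortex 72, with PTBP2 at 0 in both genotypes. The last of the 10, chr19:5801742-5801826 (minus strand), held 56 intervals, but FLAG in Rosa-PTBP1 cortex was listed at 0 and wild-type FLAG replicate 2 held 5, so the second FLAG library did not show it.

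For sites listed in both libraries a fold could be given. These were ordered after the values were seen. The highest, chr14:67466004-67466279 (minus strand), held 68 FLAG-PTBP1 intervals against 1, a share 39.7-fold higher for FLAG-PTBP1 (95% interval 6.89 to 1591). Chr2:6693868-6694086 (minus strand) held 55 against 1, or 32.1-fold (5.53 to 1291), and chr9:27600102-27600437 (plus strand) 85 against 2, or 24.8-fold (6.66 to 208). The wild-type FLAG libraries held none at these 3 sites. At the chromosome 14 and chromosome 2 sites PTBP2 in Rosa-PTBP1 cortex held 4 and 8 intervals beside 45 and 62 of FLAG, so the direction was the same there and smaller, at log2 ratios of 1.48 and 1.02.

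Most PTBP2-higher sites also held FLAG-PTBP1. Of the 204, 167 were listed in both libraries and 37 were listed at 0 for FLAG-PTBP1. The FLAG-PTBP1 library is the deeper of the 2, so a PTBP2-higher site has more room for intervals of the other protein. Their number against FLAG-PTBP1-higher sites also turned with depth, to 176 against 143 in the thinned comparison above. Among sites with 50 or more intervals the lowest ratio was at chr13:46018350-46018821 (minus strand), with FLAG-PTBP1 listed at 0 and 71 PTBP2 intervals, 22 from run XA041 and 49 from run XB028. In Rosa-PTBP1 cortex FLAG held 6 intervals at this site and PTBP2 was listed at 0, so the second pair of libraries did not show the difference.

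At chr9:49524491-49524749 (minus strand) FLAG-PTBP1 held 2 intervals and PTBP2 50, a share 42.8-fold higher for PTBP2 (11.2 to 363). FLAG in Rosa-PTBP1 cortex held 18 intervals there, more than the 2 of the comparison, and PTBP2 held 7 on a chromosome where its list is sparse. The neighbouring site chr9:49523663-49524107 held 96 and 135 intervals, and chr9:49525715-49526460 held 176 and 50. Neighbours along this stretch thus leaned both ways. At chr11:77756367-77756882 (plus strand) the counts were 5 and 55, or 18.8-fold (7.60 to 60.3). FLAG intervals there were at the left end of the site and PTBP2 coverage peaked 285 bases from its start, at 15 intervals. In Rosa-PTBP1 cortex the counts were 19 and 26, a log2 ratio of -2.30, and the FLAG peak lay at the same 28 bases from the start.

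At chr16:6548653-6548919 (plus strand) FLAG-PTBP1 held 6 intervals and PTBP2 62, or 17.7-fold (7.69 to 50.1), and the Rosa-PTBP1 libraries held 9 and 29. Adjacent chr16:6548508-6548573 held 15 PTBP2 intervals and FLAG-PTBP1 was listed at 0. Chr10:58290194-58290505 (plus strand) held 10 and 73, or 12.5-fold (6.43 to 27.2), and PTBP2 held 80 intervals there in Rosa-PTBP1 cortex, with FLAG not compared because its list is sparse on that chromosome. A higher share for PTBP2 was thus seen in both pairs at the chromosome 16 site, with a log2 ratio of -3.49 in Rosa-PTBP1 cortex, and could be compared in 1 pair only at the chromosome 10 site. At chr3:68889144-68889333 (minus strand), with 12 and 57 intervals, the wild-type FLAG libraries held 45 and 18, more in each than FLAG-PTBP1 did.

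The nearest neighbour of a called site was most often not called. Of the 508 FLAG-PTBP1-higher sites, 451 had another tested site within 10 kb on the same strand, and the nearest was FLAG-PTBP1-higher too for 137 (30.4%, beside 14.0% of all sites tested). For PTBP2-higher sites it was 30 of 115 (26.1%, beside 5.62%). The nearest was within 4-fold for 312 of the 451 and 83 of the 115. A nearest neighbour called the opposite way was found for 2 sites of each class. Neighbouring sites can lie in the same RNA, so differences common to a whole window were examined next.

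Ratios were also taken over 100-kb windows of 1 strand. Of 745 windows with 100 or more intervals, 40 (5.37%) differed 4-fold or more, 29 toward FLAG-PTBP1 and 11 toward PTBP2, and none was listed at 0 in either library. Of the 355 single sites with 100 or more intervals, 4.23% differed 4-fold. Spearman's correlation of the counts across windows was 0.63. The window with most intervals, 6.7 to 6.8 Mb on the minus strand of chromosome 2, held 5408 FLAG-PTBP1 and 3477 PTBP2 intervals at 236 sites, shares of 2.03% and 2.24%. On the plus strand of chromosome 9, the window from 27.9 to 28 Mb held 3446 and 598, a share 3.37-fold higher for FLAG-PTBP1 (3.08 to 3.68). In that window 160 of its 165 sites held FLAG-PTBP1 intervals and 53 held PTBP2 intervals.

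The window with the highest ratio was 111.5 to 111.6 Mb on the plus strand of chromosome 5, with 126 FLAG-PTBP1 intervals at 29 sites and 1 PTBP2 interval, or 73.6-fold (13.0 to 2929). FLAG in Rosa-PTBP1 cortex held 85 intervals there. On the minus strand of chromosome 3, the window from 153 to 153.1 Mb held 117 and 1, or 68.3-fold (12 to 2721), and the Rosa-PTBP1 libraries held 43 FLAG intervals and no PTBP2. A window on the minus strand of chromosome X, from 49 to 49.1 Mb, held 163 and 2. In these 3 windows every site held FLAG-PTBP1 and 1 site in each held PTBP2.

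The lowest ratio was on the minus strand of chromosome 16 from 88.2 to 88.3 Mb, with 20 FLAG-PTBP1 and 107 PTBP2 intervals, a share 9.16-fold higher for PTBP2 (5.65 to 15.6). The Rosa-PTBP1 libraries held 33 and 18 there, of 223107 and 61697 intervals on the 12 filled chromosomes, so the PTBP2 share was the higher in that pair too. Next came 28.1 to 28.2 Mb on the plus strand of chromosome 10, with 27 and 84, or 5.33-fold (3.42 to 8.55). In the window from 65.2 to 65.3 Mb on the plus strand of chromosome 14, 57 and 162 intervals fell on 2 sites, and Rosa-PTBP1 cortex held 115 and 215. The window from 110.7 to 110.8 Mb on the plus strand of chromosome 12 held 80 and 225, with 178 in wild-type FLAG replicate 2.

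Called sites were next set against their own window. For 3460 sites the ratio was set against that of the other intervals in the same window, which removes a difference common to the window. By this measure 436 sites (12.6%) were 4-fold or more toward FLAG-PTBP1 and 258 (7.46%) toward PTBP2. The balance turned when sites listed at 0 were left out, a choice made after seeing the data, with 124 toward FLAG-PTBP1 and 228 toward PTBP2. It also turned when FLAG-PTBP1 was thinned to the size of the PTBP2 library, with 120 and 195. Of the 500 FLAG-PTBP1-higher sites that could be compared, 400 were called by both measures, as were 114 of 176 PTBP2-higher sites. Among the 874 windows, 88 held sites called in both directions. A strongly leaning site also shifts the ratio that its neighbours are set against, so opposite calls within a window are partly built into this measure. The chromosome X site with most intervals was one that moved. Its PTBP2 share was 1.72-fold higher, and the rest of its window held 68 FLAG-PTBP1 and 8 PTBP2 intervals. Against its window its log2 ratio was thus -3.02. Wild-type FLAG replicates 1 and 2 held 14 and 99 intervals in the whole window, of which 2 and 9 lay at the site. The part of this background in the shift was not tested.

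The same 2 proteins were then compared in Rosa-PTBP1; Emx1-cre cortex, in 2 libraries that did not choose the sites. There were 2069 tested sites on the 12 filled chromosomes with 5 or more intervals in that pair, and their median log2 ratio of FLAG over PTBP2 was 0.65. It was 3.19 at the 263 FLAG-PTBP1-higher sites and -0.79 at the 119 PTBP2-higher sites. Of the 263, 181 were 4-fold or more higher for FLAG, where 37.2% of all 2069 sites were. Of the 119, 37 were 4-fold or more higher for PTBP2, against 6.57%. In the opposite direction, 5 of the 263 and 22 of the 119 passed 4-fold. The called sites therefore leaned the same way in the second pair. FLAG libraries of both pairs came from run WA047 and PTBP2 libraries of both from runs XA041 and XB028, so antibody and run followed the protein in each pair.

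The size of this lean depended on sites listed at 0. PTBP2 of Rosa-PTBP1 cortex, the shallower list, was at 0 at 179 of the 263 sites and at 722 of the 2069. At sites listed in both Rosa-PTBP1 libraries, a choice made after seeing the data, the median was 0.77 at 82 FLAG-PTBP1-higher sites, -1.14 at 90 PTBP2-higher sites and -0.34 at all 1328. Across sites, the log2 ratios of the 2 genotype pairs had a Spearman correlation of 0.48 (2069 sites) and of 0.46 at the 1271 sites listed in all 4 libraries. The pairs share no library, and the points share the mappability and sequence of the site.

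**Figure D4:**
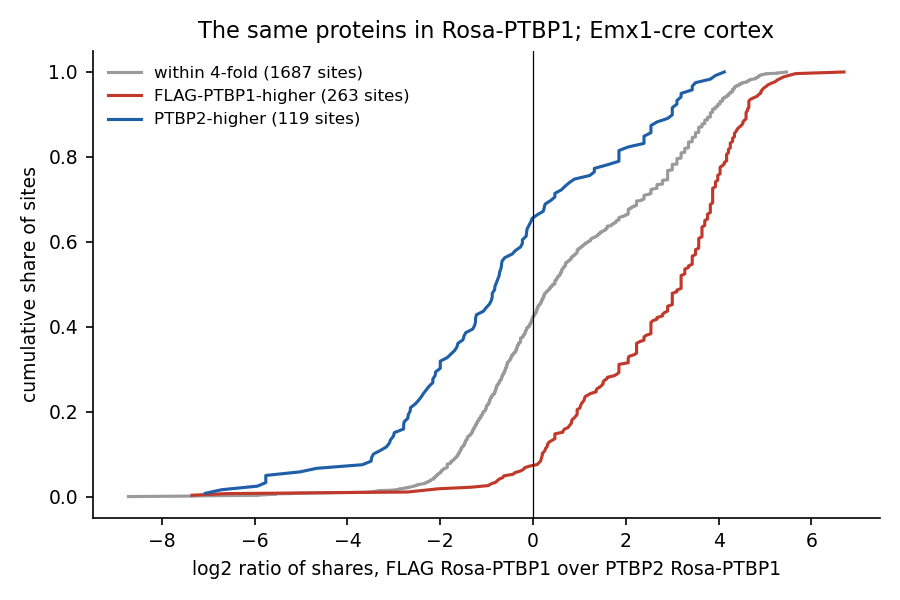
Cumulative share of sites (y axis) against the log2 ratio of shares of FLAG over PTBP2 in Rosa-PTBP1; Emx1-cre cortex (x axis), for 263 FLAG-PTBP1-higher, 119 PTBP2-higher and 1687 other sites as called in the comparison of the other 2 libraries. The red curve lies to the right of the grey and the blue curve to the left, with medians of 3.19, 0.43 and -0.79.

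Summed over the classes, each library followed its protein, and the differences were smaller in Rosa-PTBP1 cortex. The FLAG-PTBP1-higher sites of the 12 chromosomes took 5.64% of FLAG-PTBP1 intervals and 0.296% of PTBP2 intervals in the libraries that chose them. They took 3.35% of FLAG and 0.726% of PTBP2 intervals in Rosa-PTBP1 cortex. For the PTBP2-higher sites the shares were 0.483% and 3.72% in the choosing libraries and 1.01% and 2.44% in Rosa-PTBP1 cortex. The sites were taken for their extreme ratio in the first pair, and the part of that choice in the narrowing was not tested.

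Drawn to 60000 intervals each on the 12 chromosomes, the 2 libraries differed 4-fold at 74 of 798 sites (9.27%), 32 toward FLAG-PTBP1 and 42 toward PTBP2. The 2 FLAG libraries, with and without PTBP2 loxP alleles, differed at 17 of 724 sites (2.35%). The 2 PTBP2 libraries, wild type and Rosa-PTBP1, differed at 33 of 742 (4.45%). A 4-fold difference was thus found at more sites between the FLAG and PTBP2 libraries than between genotypes of 1 protein. These counts share libraries, use a set of sites for each pair and were not tested against each other. Antibody and run differed along with the protein and were shared within 1 protein, so their parts cannot be told apart. FLAG and PTBP2 within Rosa-PTBP1 cortex differed at 17.0% of 606 sites, 23 toward FLAG and 80 toward PTBP2. The median log2 ratio of those sites was -0.77 and was not set to 0, so an offset of the whole pair enters its calls. Undrawn, that pair leaned the other way, with 942 sites toward FLAG, 127 toward PTBP2 and a median of 0.88. The 2 runs of the PTBP2 library, undrawn and over all chromosomes, differed at 2 of 1036 sites (0.193%). Both runs came in 1 deposited list, and whether they were combined before clusters were called is not stated. If they were combined first, each site was listed with both in view.

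**Figure D5:**
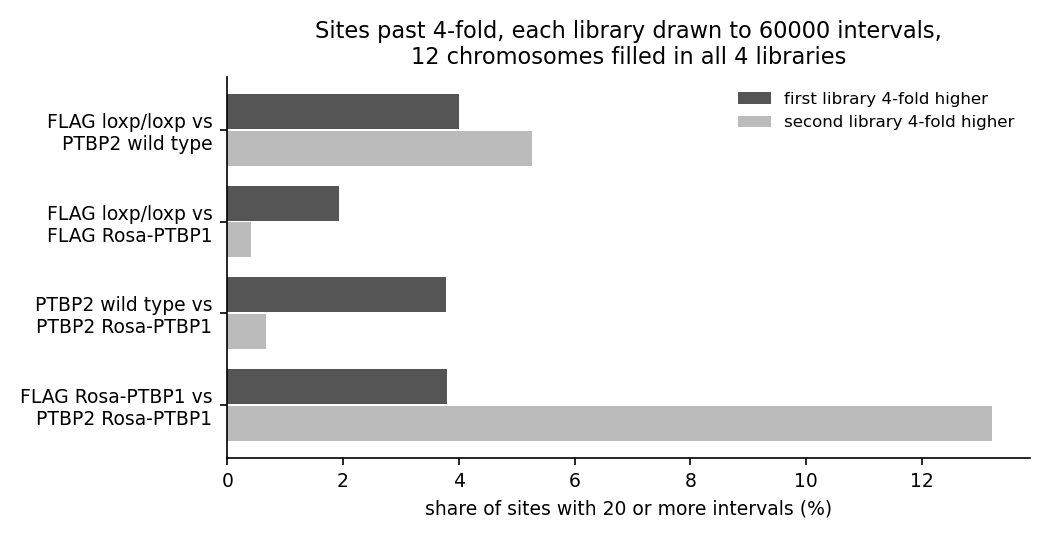
Share of sites with 20 or more intervals that differed 4-fold (x axis, %) in 4 pairs of libraries, each drawn to 60000 intervals on the 12 chromosomes filled in all of them; dark bars are sites higher in the first library named and light bars in the second. The pairs of FLAG with PTBP2 have 9.27% and 17.0% of sites past 4-fold in both directions together, and the pairs of 1 protein in 2 genotypes 2.35% and 4.45%. Ratios were not centred, and the pair at 17.0% had a median log2 ratio of -0.77, toward PTBP2.

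Intervals of the wild-type FLAG libraries were found at a minority of the sites, at similar shares of each class. At least 1 was present at 19.8% of the 3630 sites (18.5 to 21.1), at 17.7% of FLAG-PTBP1-higher sites (14.5 to 21.3) and at 17.2% of PTBP2-higher sites (12.3 to 23.0). Replicate 1 alone was present at 16.8% of all sites and replicate 2 at 5.29%. On the 12 chromosomes the tested sites took 2.39% of replicate 1's intervals and 31.9% of replicate 2's. They took 48.2% of FLAG-PTBP1 and 51.4% of PTBP2 intervals. The background was thus spread thinly in replicate 1 and gathered at few sites in replicate 2, such as those on chromosome 19.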

How the data were processed

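Bowtie and the mm9 build are named per the submitters' processing notes, without a version. Each list the authors deposited holds read intervals (start and end positions, with strand and read name) from clusters that were significant by false discovery rate, per the file headers and names. The cluster caller, its level and why lines repeat are not stated. Lines were collapsed to distinct intervals, 1.09 lines each for FLAG-PTBP1 and 1.20 for PTBP2. Run names come from the read names. Intervals on other chromosomes (38 and 162) were left out.

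Ratios of shares have exact conditional binomial 95% intervals. With 1 library a group there was no test. Computation used Python 3.11.15, pandas 2.3.3, numpy 2.4.6 and scipy 1.17.1, and was tested on simulated data. Sparse chromosomes were those with under 0.5 times the share of own sites that the other libraries had at the median. Random drawing used a fixed seed. Coverage peaks tied within a site were set at their smallest distance.

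Named sites were those with most intervals (10) and, among sites with 50 or more, the 10 highest and 10 lowest ratios, alone and against their window. Named windows had 100 or more intervals and were ordered likewise. The text takes some from each order. The sites, lists and rules were chosen with earlier results of these data known. The reference at hand was of another build, so genes, exons, sequences, gene lists and cell type markers, and with them a check of the labelled tissue, were not analysed here.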

Additional observations from a re-analysis of the deposited data

How the results depend on the processing

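The number of calls depended on the minimum number of intervals and on depth. With a minimum of 50, 98.6% of sites were listed in both libraries, 52 were FLAG-PTBP1-higher and 26 PTBP2-higher (29 and 45 against their window). The Rosa-PTBP1 medians of these classes were 2.71 and -1.46, and wild-type FLAG was present at 28.5% of sites. With a minimum of 10, the values were 71.2%, 2528 and 776 (2189 and 845 against the window), a median of 2.67 for FLAG-PTBP1-higher sites, and 14.9%. With FLAG-PTBP1 thinned to the size of PTBP2, they were 95.9%, 143 and 176 (120 and 195 against the window), 3.67 and 21.3%. Counting every line gave 88.3% listed in both and a median of 3.71. Joining intervals within 25 bases gave wild-type FLAG at 21.9%. Setting the median log2 ratio to 0 gave medians of 2.54 and -1.45. With run XA041 alone, 81.8% were listed in both, 34 sites were PTBP2-higher (104 against the window) and their median was -1.77; run XB028 alone gave 88.8%. Leaving out wild-type FLAG replicate 1 or 2 gave 5.29% to 16.8%. A further pair of choices was added after the data were seen. Sites listed in both libraries only gave 181 FLAG-PTBP1-higher and 167 PTBP2-higher sites (124 and 228 against the window) with a median of 2.54 at the former, and sites listed in both Rosa-PTBP1 libraries only gave a median of 0.77. Fewer sites, or fewer intervals, enter under the minimum, thinning and single-run settings; the cause of the other changes was not tested. Over 46 named sites and 230 alternative values, 3 moved, all with run XA041 alone, and 0 were recorded as reversed. A reversal could be recorded only at sites past 4-fold in the main comparison, which leaves out the 10 sites with most intervals. A count of 0 also stays at 0 when a library is thinned or 1 run is taken. The absence of reversals was therefore partly fixed in advance. No paired analysis was possible because each group of the comparison held 1 library. Depth limited the shallower lists most: a site at 0 there may have held reads that missed the cluster threshold.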
